A study of Rattus norvegicus with 16 samples.

Results

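The 8 genes described here encode structural proteins of the peripheral myelin sheath, and they were taken by name from a table of 31038 rat genes: Mbp, Pmp22, Mag, Mal, Prx, Cnp, Pmp2 and Drp2. Purified Schwann cells of the rat sciatic nerve and the whole nerve were sequenced in 16 libraries that form 8 groups of 2: each tissue uncrushed and 3, 5 and 7 days after a crush of the nerve. The labels give postnatal day 18 as the age of every group, which is also the age at crush in the study's description, and they name no genetic alteration or drug. If uncrushed nerves were taken at that age, nerves taken 3 to 7 days after the crush came from older animals, and age and injury cannot be told apart. Each sample of purified cells was made from at least 10 nerves, so animals were pooled, and in crushed nerves the segment distal to the injury was taken, against the equivalent segment of uncrushed nerves. Schwann cells were purified by immunopanning, in which dissociated cells are passed over antibody-coated dishes: cells with CD45 or Thy1 were removed and cells with the O4 antigen were kept. Whole nerve was not dissociated. Nerves of sham-operated animals were not analysed here, so effects of the crush and of the surgery around it cannot be told apart.

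The myelin sheath is the membrane of a Schwann cell wrapped many times around 1 axon. In its compact part the layers are held together by proteins of the membrane and of its cytoplasmic face. Mbp (myelin basic protein) joins the cytoplasmic faces, Pmp22 is a protein that spans the membrane and whose gene dose causes inherited neuropathy, Pmp2 (the myelin protein P2) binds fatty acids at the cytoplasmic face, and Mal is a protein of lipid-rich membrane domains. In the non-compact part, Mag (myelin-associated glycoprotein) faces the axon and Cnp is an enzyme that binds the cytoskeleton and is found in cytoplasmic channels. At the outer surface of the sheath, Prx (periaxin) and Drp2 (dystrophin-related protein 2) form a complex with dystroglycan that organises the patches where the membrane touches the sheath's outer layer. After a nerve is cut or crushed, axons distal to the injury degenerate, myelin is broken down and Schwann cells change into repair cells, in which myelin genes are known to be turned down.

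Expected counts, the number of fragments assigned to a gene, summed to between 10555067 and 27562637 per library. All 8 genes passed the filter on low counts in every fit. The 2 libraries of uncrushed Schwann cells, the reference of the comparisons with uncrushed cells, differed more than those of any other group: the median gene differed by 0.22 on the log2 scale of counts scaled to library size, against 0.14 to 0.20 in the other 7 groups, and the chi-square per degree of freedom between replicate counts was 33.9 against 9.28 to 25.3. No gene of the 8 called in crushed against uncrushed Schwann cells lost its call when either of these libraries was left out. All 4 Schwann cell markers checked (Sox10, S100b, Erbb3 and Ngfr) were at 1 FPKM or more in every group, and their summed FPKM was 702 to 832 in uncrushed and 2446 to 3024 in crushed Schwann cells, and in whole nerve 1846 to 2035 before injury and 1421 to 2089 after it. S100b, a calcium-binding protein, made up most of this sum in whole nerve, and before injury it was lower in purified cells than in the nerve (−2.27 on the log2 scale, SE 0.13), while Sox10, Erbb3 and Ngfr were higher, by 1.05 (SE 0.16), 2.16 (SE 0.13) and 1.52 (SE 0.23). FPKM is the number of fragments scaled to the length of the transcript and the total of the library, so levels can be compared between genes. The summed FPKM of 6 macrophage markers was 2.45 to 12.5 over the Schwann cell libraries and 119 to 548 in whole nerve, and that of 5 fibroblast markers was 158 to 332 against 4128 to 6085. All 4 endothelial markers summed to at most 3.39 FPKM in any Schwann cell library, and Pecam1 in uncrushed Schwann cells and Esam at day 7 were at 0. Of 4 perineurial markers, Lypd2 was at 0 in every group and Msln in uncrushed and day 7 Schwann cells, and the sum of the 4 was 12.1 to 20.5 in Schwann cells and 120.3 to 241 in whole nerve. The sum of 3 pericyte markers was 6.76 to 46.9 against 233 to 353. The proportion of a library that came from Schwann cells was not measured, and in whole nerve fewer Schwann cells and less RNA per Schwann cell cannot be told apart.

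Together the 8 genes took 2.61% and 2.57% of all transcripts (as TPM, a unit in which all libraries have equal totals) in the 2 libraries of uncrushed Schwann cells. This share was 0.276% and 0.274% at day 3, 0.430% and 0.443% at day 5, with 0.979% and 0.811% at day 7. In whole nerve it was 4.06% and 4.95% before injury, 0.157% and 0.137% at day 3, 0.216% and 0.235% at day 5, then 0.539% and 0.628% at day 7. The 2 libraries of a group did not overlap with those of the next time point in either tissue, and whole nerve had the larger share before injury and the smaller one at each day after it. In the Schwann cell group of day 7, replicate 1 was above replicate 2 for all 8 genes, and the same held in whole nerve at day 3, while in uncrushed whole nerve replicate 2 was above replicate 1 for all 8.

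The make-up of this share changed with injury. Pmp22 was 74.5% of the summed TPM of the 8 genes in both uncrushed Schwann cell libraries, 43.8% and 41.0% at day 3, 50.6% and 48.9% at day 5, with 65.5% and 66.1% at day 7. Cnp was 2.74% and 2.79% before injury and 21.1% and 22.6% at day 3. Mbp was 13.8% and 14.8% before injury and 27.0% and 28.8% at day 3. In whole nerve Cnp went from 0.528% and 0.504% to 13.7% and 13.6% of the 8 genes at day 3.

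**Figure D1:**
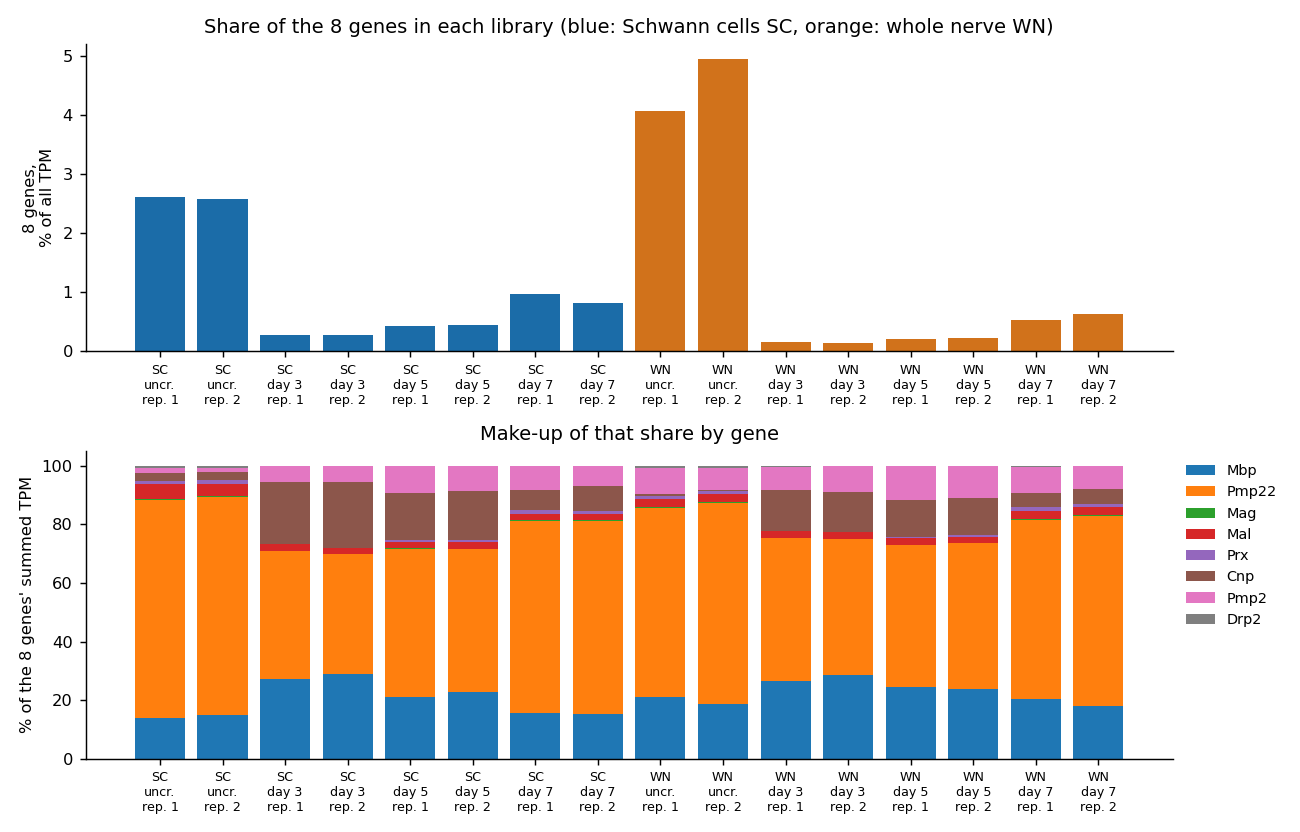
Upper panel, the 8 genes' summed TPM as a percent of all TPM in each of the 16 libraries; lower panel, the percent of that sum taken by each gene. The share was lowest at day 3 in both tissues, when Cnp (brown) took its largest part, 21.1% and 22.6% in Schwann cells against 2.74% and 2.79% before injury.

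For 7 of the 8 genes the set of RefSeq promoters used here held a record with a start site in the assembly GRCr8, 9 records in all. That set held no record matched to Pmp2. The sequences before 3 of these start sites are shown because they belong to the genes at the ends of the range at day 3: Prx and Mag, which fell most in Schwann cells, and Cnp, which did not pass the test. Each is the 250 bases before the start, on the strand of the gene, in lower case with capitals for a match to ACAAAG, a core bound by SOX proteins, or to its reverse complement CTTTGT. They lie at chr1:91914171-91914420 on the plus strand for Prx, chr1:95291045-95291294 on the minus strand for Mag and chr10:86011254-86011503 on the plus strand for Cnp.
Prx: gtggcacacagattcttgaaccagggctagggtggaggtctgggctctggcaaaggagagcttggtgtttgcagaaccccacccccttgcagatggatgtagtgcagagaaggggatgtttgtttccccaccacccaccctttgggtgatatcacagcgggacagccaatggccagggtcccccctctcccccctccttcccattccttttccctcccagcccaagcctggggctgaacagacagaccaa
Mag: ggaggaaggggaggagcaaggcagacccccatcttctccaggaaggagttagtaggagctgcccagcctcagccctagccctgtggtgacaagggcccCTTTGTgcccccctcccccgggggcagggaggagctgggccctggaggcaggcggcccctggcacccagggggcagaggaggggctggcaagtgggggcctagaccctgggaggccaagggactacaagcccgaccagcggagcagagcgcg
Cnp: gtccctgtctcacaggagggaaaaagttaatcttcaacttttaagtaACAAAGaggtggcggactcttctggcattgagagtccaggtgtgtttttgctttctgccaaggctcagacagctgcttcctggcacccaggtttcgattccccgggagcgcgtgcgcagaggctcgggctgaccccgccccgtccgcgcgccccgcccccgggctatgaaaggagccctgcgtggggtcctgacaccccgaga
The match in Mag begins 152 bases before the start and reads CTTTGT, and that in Cnp begins 203 bases before the start and reads ACAAAG. The sequence of Prx held none of the 4 motifs searched on both strands in the window from 250 bases before to 50 after the start. Of 33469 such windows in the table, 18.8% held ACAAAG, 13.2% ACAATG (another SOX core), 4.98% GCGNGGGCG (bound by EGR proteins) and 14.2% TATAAA (the TATA box). Over the 7 genes with a record, 3 held ACAAAG (Mbp, Mag and Cnp), 1 held ACAATG (Mbp), 1 held TATAAA (Drp2, on both strands with the matches overlapping) and none held GCGNGGGCG. Mbp and Drp2 had 2 records each, and all their matches lay in record 2. These counts are per gene, while the percentages above are per window. A match describes the letters of the window only.

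In Schwann cells 3 days after the crush, 7 of the 8 genes were lower than in uncrushed cells and 1, Cnp, was not called, in edgeR's quasi-likelihood test with adjusted p below 0.05. Of all 14961 genes tested, 25.7% were called lower. The median log2 fold change of the 8 genes was −3.92, beside 0.0034 for all genes. Prx and Mag lay at the low end, with log2 fold changes of −6.01 and −5.90, and Pmp2 and Mbp were the least reduced of the genes called, at −1.37 and −2.05. At day 5 the count was 6 lower and 2 not called, against 25.6% of all genes called lower, and at day 7 it was 6 lower, 1 higher (Pmp2) and 1 not called, against 21.9% lower and 25.0% higher among all genes. The medians were −2.90 at day 5 and −1.498 at day 7, beside 0.06 and 0.06 for all genes. The 3 comparisons share the 2 uncrushed libraries.

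With 2 libraries in each group the smallest p of an exact two-sided permutation test on 1 gene is 0.333, and the adjusted p-values therefore rest on the spread that edgeR estimates over all genes. The labels do not say that 2 samples of a group came from separate sets of animals, and the p-values then measure the spread between these samples, which may be technical. Levels are given in FPKM for the 2 libraries in order of their replicate number, and fold changes are from edgeR on expected counts scaled by the TMM method. The TMM factors were 0.808 to 0.811 in uncrushed whole nerve and 1.06 to 1.09 after injury, which makes fold changes in whole nerve more negative than the ratio of FPKM. In the Schwann cell libraries the factors were 0.952 to 1.03.

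**Figure D2:**
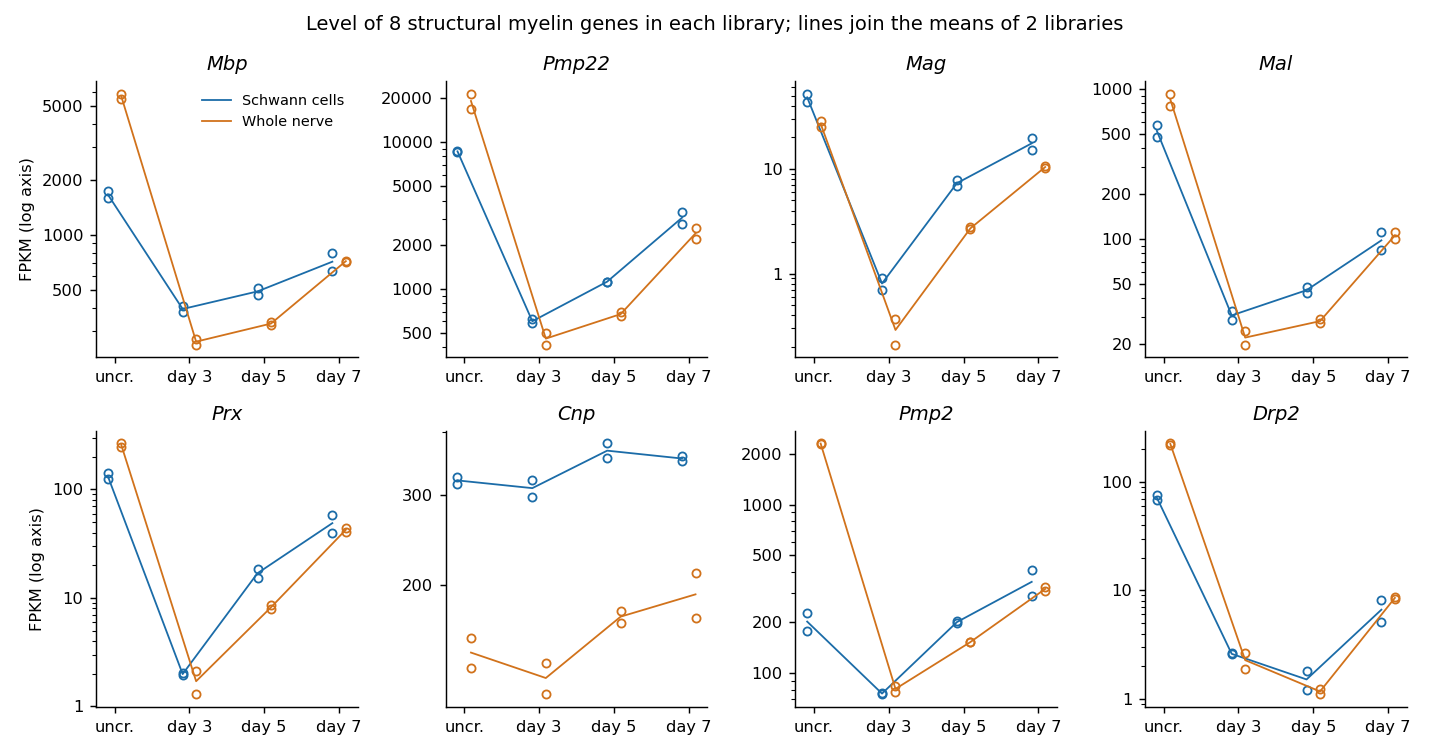
FPKM (log axis) of each of the 8 genes in uncrushed nerves (uncr.) and 3, 5 and 7 days after the crush; circles are single libraries and lines join the means of 2 libraries, in blue for Schwann cells and orange for whole nerve. Cnp kept to a narrow range within each tissue, Drp2 was lowest at day 5 and the other 6 genes were lowest at day 3.

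Among the genes of compact myelin, Pmp22 was the most abundant, the gene ranked 3 and 4 by FPKM among all genes in uncrushed Schwann cells. Its FPKM in Schwann cells was 8584 and 8721 before injury, 619 and 583 at day 3, 1120.15 and 1118 at day 5, then 3353 and 2754 at day 7. No group overlapped with another, and the mean at day 3 was 6.94% of the uncrushed mean and at day 7 it was 35.3%. By edgeR the log2 fold changes were −3.80 (SE 0.13, adjusted p = 4.98e-08), −2.99 (SE 0.12, adjusted p = 1.28e-07) and −1.55 (SE 0.11, adjusted p = 6.13e-06) at days 3, 5 and 7.

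Mbp was less abundant and its change was smaller. Its FPKM in Schwann cells was 1584 and 1736 before injury, 382 and 409.7 at day 3, 469.5 and 517 at day 5, with 799 and 633 at day 7. The means of the 4 groups were 1660 ± 108, 396 ± 19.5, 493 ± 33.9 and 716 ± 117 FPKM (SD, n = 2), which is 23.8%, 29.7% and 43.1% of the uncrushed mean at the 3 days. In edgeR's test these were log2 fold changes of −2.05 (SE 0.14, adjusted p = 1.71e-06), −1.82 (SE 0.14) and −1.27 (SE 0.13, adjusted p = 5.24e-05). Because Pmp22 fell further, the ratio of Mbp to Pmp22 in FPKM went from 0.185 and 0.199 in the 2 uncrushed libraries to 0.618 and 0.703 at day 3 and stood at 0.238 and 0.230 at day 7. Mbp is transcribed as several isoforms, and the abundance-weighted length of its transcripts lay between 1975 and 2030 bases over the Schwann cell libraries, so the levels rest on nearly the same length throughout.

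Mal, like Pmp22, was far lower at day 3, and it stood further below its uncrushed level at day 7. Its FPKM in Schwann cells was 571 and 476 before injury, 32.9 and 28.7 at day 3, 43.2 and 47.6 at day 5, then 111 and 83.6 at day 7. The mean at day 7 was 18.6% of the uncrushed mean, where Mbp stood at 43.1% and Pmp22 at 35.3%. The log2 fold changes of Mal were −4.04 (SE 0.16, adjusted p = 8.16e-08), −3.56 (SE 0.16) and −2.46 (SE 0.15, adjusted p = 1.79e-06) by edgeR.

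Of the 8 genes, Pmp2 was the one called higher at day 7 than before injury in purified cells. Its FPKM in Schwann cells was 226 and 179 before injury, 76.5 and 74.9 at day 3, 203 and 198 at day 5, with 408 and 288 at day 7. The day 5 libraries lay inside the range of the uncrushed ones, and both day 7 libraries lay above it. The log2 fold change was −1.37 (SE 0.16, adjusted p = 7.83e-05) at day 3, −0.04 (SE 0.16, 95% interval −0.39 to 0.31, adjusted p = 0.841) at day 5 and 0.74 (SE 0.16, adjusted p = 0.00388) at day 7 by edgeR. The day 7 value was 0.47 without replicate 1 and 0.98 without replicate 2 of day 7, and 0.89 and 0.59 without replicates 1 and 2 of the uncrushed cells, and it was called in each case. Between days 3 and 7 it rose by 2.11 on the log2 scale (SE 0.16).

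Of the genes of non-compact myelin, Mag was among the genes that fell most and Cnp was not called at any day in Schwann cells. The FPKM of Mag in Schwann cells was 43.85 and 52.2 before injury, 0.91 and 0.7 at day 3, 7.78 and 6.79 at day 5, then 19.9 and 15.1 at day 7. The day 3 values rest on 37 and 49 expected counts. The mean was 1.68% of the uncrushed mean at day 3, 15.2% at day 5 and 36.4% at day 7, with no overlap between groups. Log2 fold changes of Mag were −5.90 (SE 0.22, adjusted p = 6.43e-08), −2.81 (SE 0.18) and −1.52 (SE 0.17, adjusted p = 7.18e-05) by edgeR.

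The FPKM of Cnp in Schwann cells was 315 and 326 before injury, 298 and 322 at day 3, 354.7 and 379.6 at day 5, with 358 and 350.5 at day 7. The uncrushed and day 3 libraries overlapped in FPKM, and the group means lay between 309.8 and 367 FPKM. In TPM they did not overlap, at 716.0 and 716.1 before injury and 582 and 619 at day 3. The means at days 3, 5 and 7 were 96.6%, 114% and 110% of the uncrushed mean in FPKM. In TPM they were 83.9%, 99.3% and 95.5% of it, so the side of the uncrushed level at days 5 and 7 depended on the unit. The log2 fold change was 0.00097 (95% interval −0.21 to 0.22, adjusted p = 0.994) at day 3, 0.17 (−0.05 to 0.38, adjusted p = 0.168) at day 5 and 0.10 (−0.11 to 0.31, adjusted p = 0.415) at day 7 by edgeR. The ratio of Cnp to Mag in FPKM, computed from the mean log2 ratio of the 2 libraries, was 6.71 before injury and 388 at day 3.

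The 2 genes of the outer complex, Prx and Drp2, were both reduced at all 3 days and reached their low points at different days. The FPKM of Prx in Schwann cells was 124 and 141 before injury, 1.93 and 2.04 at day 3, 15.3 and 18.5 at day 5, then 58.3 and 39.6 at day 7. The mean at day 3 was 1.495% of the uncrushed mean, the lowest share of the 8 genes that day, and at day 7 it was 36.9%. For Prx the log2 fold changes were −6.01 (SE 0.22, adjusted p = 6.37e-08), −3.00 (SE 0.19) and −1.48 (SE 0.18, adjusted p = 0.00012) by edgeR.

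Drp2 was at its lowest at day 5. Its FPKM in Schwann cells was 67.65 and 75.55 before injury, 2.58 and 2.62 at day 3, 1.21 and 1.81 at day 5, with 8.13 and 5.15 at day 7. The day 5 values rest on 163 and 220 expected counts. The log2 fold changes were −4.71 (SE 0.24, adjusted p = 3.27e-07), −5.57 (SE 0.26) and −3.46 (SE 0.23, adjusted p = 2.98e-06) by edgeR, and the mean at day 7 was 9.27% of the uncrushed mean. The ratio of Prx to Drp2 in FPKM was 1.84 and 1.87 in the 2 uncrushed libraries, 0.748 and 0.779 at day 3, 12.6 and 10.2 at day 5, then 7.17 and 7.68 at day 7.

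**Figure D3:**
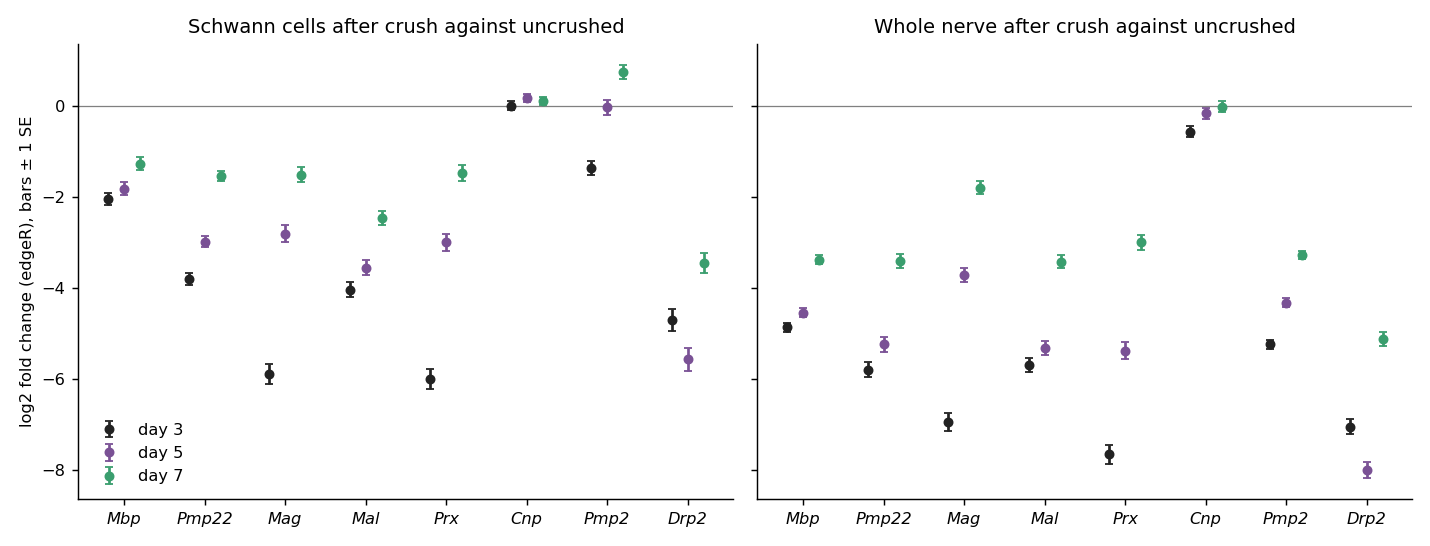
Log2 fold change of each gene against uncrushed (edgeR, bars 1 SE) at days 3, 5 and 7, in Schwann cells on the left and whole nerve on the right. In Schwann cells Cnp stayed near 0 and Pmp2 crossed 0, while in whole nerve 7 genes lay at −1.80 or lower at every day and Cnp lay nearest 0.

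From day 3 to day 5 in Schwann cells, 4 of the 8 genes rose, 1 fell and 3 were not called, against 6.09% of all genes called higher and 6.36% called lower. The genes that rose were Mag, by 3.09 (SE 0.22), Prx, by 3.00 (SE 0.20), Pmp2, by 1.33 (SE 0.16), and Pmp22, by 0.82 (SE 0.11) on the log2 scale. Mbp differed by 0.23 (adjusted p = 0.289 by edgeR), Mal by 0.48 (adjusted p = 0.0584, and 0.0191 with DESeq2) and Cnp by 0.16 (adjusted p = 0.298). Mal was called under 7 of the 8 other settings of the fit, all but upper quartile normalization. Its adjusted p by edgeR there ran from 0.00155 (no filter on low counts) to 0.0465 (at least 10 counts in every library). The gene called lower was Drp2, by −0.86 (SE 0.24, adjusted p = 0.0417 by edgeR). That call was lost when any 1 of the 4 libraries of days 3 and 5 was left out: the values were −0.88 and −0.83 without replicates 1 and 2 of day 3 and −0.60 and −1.17 without replicates 1 and 2 of day 5, with adjusted p of 0.132, 0.166, 0.247 and 0.0504. It was also lost with library totals in place of TMM factors (adjusted p = 0.0516), with which 62.9% of the genes called were higher, against 48.9%.

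From day 5 to day 7, 6 of the 8 genes rose and 2, Mbp and Cnp, were not called, against 1.18% of all genes called higher. Drp2 rose most, by 2.12 (SE 0.23, adjusted p = 0.00379 by edgeR), followed by Prx with 1.52 (SE 0.18), Pmp22 with 1.44 (SE 0.11), Mag with 1.29 (SE 0.17), Mal with 1.09 (SE 0.14) and Pmp2 with 0.78 (SE 0.16) on the log2 scale. Mbp differed by 0.55 (SE 0.13, adjusted p = 0.0713 by edgeR and 0.00194 by DESeq2). The number of the 8 genes called higher was 2 without replicate 1 and 3 without replicate 2 of day 5, and 3 without replicate 1 and 7 without replicate 2 of day 7. Mag, Mal and Pmp2 lost their calls without either library of day 5 or replicate 1 of day 7, with values of 1.07 to 1.40 for Mag, 0.87 to 1.14 for Mal and 0.51 to 0.83 for Pmp2, and Prx lost its call without replicate 1 of day 5 (1.41, adjusted p = 0.0515 by edgeR). Drp2 and Pmp22 were called without any 1 of the 4 libraries, and Mbp was called without replicate 2 of day 7 (0.72). Of the genes called in this comparison 60.5% were higher, and 71.3% with upper quartile normalization. Over the whole span from day 3 to day 7, 7 of the 8 genes rose, against 10.2% of all genes, from 0.78 (SE 0.13) for Mbp to 4.53 (SE 0.21) for Prx and 4.38 (SE 0.22) for Mag, and Cnp was not called at 0.10 (adjusted p = 0.510 by edgeR). Of the genes called over that span 48.8% were higher, and 62.5% with library totals.

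In whole nerve all 8 genes were lower at day 3, against 22.5% of all 15831 genes tested, 7 were lower at day 5 and at day 7 (19.5% and 15.9% of all genes), and Cnp was the gene not called at those days. The median log2 fold changes of the 8 genes were −5.74, −4.89 and −3.33, beside 0.0029, −0.01 and 0.02 for all genes. The 3 comparisons share the uncrushed libraries here too. The macrophage marker sum was 119 to 132 FPKM in uncrushed whole nerve and 525 to 548 at day 3, 315 to 337 at day 5 and 329 to 336 at day 7, with all 6 markers present. From before injury to day 3 the Schwann cell marker sum went from 1846 to 2035 FPKM to 1421 to 1536, with S100b called lower (−1.46, SE 0.11), Erbb3 and Ngfr called higher and Sox10 at −0.26 (adjusted p = 0.233 by edgeR). The fibroblast sum went from 4128 to 4857 FPKM to 5242 to 5307, and the endothelial sum from 65.0 to 66.4 FPKM to 91.9 to 93.5. The part of these markers in the results for whole nerve was not tested. Scaling by library totals in place of TMM factors shifted the median of all genes by 0.41, 0.40 and 0.41 on the log2 scale at days 3, 5 and 7, and the share of higher genes among those called went from 50.7% to 79.2%, from 49.2% to 81.2% and from 49.3% to 85.8%, while the same 7 of the 8 genes were called lower.

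The genes of compact myelin that were highest in uncrushed whole nerve fell to a few percent of that level. The FPKM of Pmp22 in whole nerve was 16728 and 21431 before injury, 499 and 416 at day 3, 647 and 697 at day 5, with 2185 and 2591 at day 7. The FPKM of Mbp was 5485 and 5871, 273 and 253, 325 and 335, and 724 and 717 at the same times. These are means of 2.40% and 4.63% of the uncrushed level at day 3, and log2 fold changes of −5.79 (SE 0.17) for Pmp22 and −4.87 (SE 0.10) for Mbp by edgeR.

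The FPKM of Pmp2 in whole nerve was 2295 and 2310.2 before injury, 83.6 and 77.9 at day 3, 153.2 and 152.8 at day 5, then 326 and 306 at day 7. Its mean at day 7 was 13.7% of the uncrushed mean, where in Schwann cells it was 172%. On the log2 scale Pmp2 changed by −5.24 (SE 0.10), −4.32 (SE 0.10) and −3.27 (SE 0.09) in whole nerve. The FPKM of Mal was 769 and 929, 24.2 and 19.65, 29.2 and 27.2, and 99.0 and 111 at the same times, with log2 fold changes of −5.68 (SE 0.15), −5.32 (SE 0.15) and −3.42 (SE 0.14).

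The FPKM of Mag in whole nerve was 25.04 and 28.75 before injury, 0.37 and 0.21 at day 3, 2.64 and 2.76 at day 5, with 10.6 and 10.2 at day 7. The day 3 values of Mag rest on 18 and 11 expected counts, and the log2 fold changes were −6.95 (SE 0.20), −3.72 (SE 0.16) and −1.80 (SE 0.14). Mag was thus the gene, of those called, that had returned closest to its uncrushed level in whole nerve at day 7, to 38.7% of it in FPKM. The FPKM of Cnp was 137 and 157, 140.4 and 122, 168 and 178, and 172 and 211 at the same times. At day 3 the log2 fold change of Cnp was −0.57 (SE 0.12, adjusted p = 0.00299 by edgeR), though its FPKM overlapped between the groups and scaling by library totals gave −0.16 (adjusted p = 0.267). At day 7 it was −0.03 (95% interval −0.30 to 0.24, adjusted p = 0.887), and with library totals it was called higher, at 0.38 (adjusted p = 0.0232).

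The FPKM of Prx in whole nerve was 248 and 267 before injury, 2.12 and 1.29 at day 3, 7.84 and 8.54 at day 5, then 44.1 and 40.95 at day 7. That of Drp2 was 221 and 227, 2.66 and 1.89, 1.1 and 1.24, and 8.36 and 8.7 at the same times. In both genes little of the uncrushed level was left at day 3, when Prx stood at 0.663% and Drp2 at 1.01% of the uncrushed mean, and Drp2 was lower again at day 5, at 0.521%. The log2 fold changes were −7.65 (SE 0.21), −5.38 (SE 0.18) and −3.00 (SE 0.16) for Prx and −7.05 (SE 0.17), −8.00 (SE 0.18) and −5.13 (SE 0.16) for Drp2.

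From day 3 to day 5 in whole nerve 5 genes rose, 1 fell and 2 were not called, against 5.68% of all genes called higher and 5.87% called lower. Mag rose by 3.23 (SE 0.23), Prx by 2.27 (SE 0.18), Pmp2 by 0.92 (SE 0.09), Pmp22 by 0.55 (SE 0.14) and Mbp by 0.32 (SE 0.09) on the log2 scale. Without any 1 of the 4 libraries of these days the number that rose was 3, because Pmp22 and Mbp were no longer called. Without them the values of Pmp22 were 0.70 and 0.42 (replicates 1 and 2 of day 3) and 0.61 and 0.49 (replicates 1 and 2 of day 5), and those of Mbp were 0.39, 0.26, 0.35 and 0.30 in the same order. The call of Mbp was also lost with all 16 libraries in the fit (0.35, adjusted p = 0.0807 by edgeR). Cnp (0.40, adjusted p = 0.0569 by edgeR) and Mal (0.36, adjusted p = 0.106) were not called, but DESeq2 called both (adjusted p = 0.0103 and 0.0359), as did edgeR with no filter on low counts (0.00263 and 0.0122) or with only the 2 groups compared (0.0127 and 0.0490), and the number that rose was then 7. Drp2 fell by 0.95 on the log2 scale (SE 0.16, adjusted p = 0.00564 by edgeR), a call that held unless replicate 1 of day 5 was left out (−0.87, adjusted p = 0.0558). From day 5 to day 7, 7 of the 8 genes rose, against 3.65% of all genes, led by Drp2 with 2.87 (SE 0.16) and Prx with 2.37 (SE 0.16), and Cnp was not called (0.14, adjusted p = 0.519 by edgeR). Over days 3 to 7 all 8 rose, against 9.85% of all genes, and the call of Cnp (0.55, adjusted p = 0.00965 by edgeR) was lost without replicate 2 of day 3 (0.43) or of day 7 (0.40).

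The order of the group levels was compared gene by gene over the 8 groups. Of 56 pairs of neighbours in these orders, 43 did not overlap between their libraries, against 39% of such pairs over all 16829 genes. Uncrushed whole nerve was the highest group for 6 of the genes, uncrushed Schwann cells for Mag and Schwann cells of day 5 for Cnp. The neighbours that overlapped were Schwann cells and whole nerve of day 7 for Mbp, Mal, Prx and Pmp2, Schwann cells and whole nerve of day 3 for Prx and Drp2, those of day 5 for Drp2, day 3 Schwann cells and day 5 whole nerve for Mal, uncrushed and day 5 Schwann cells for Pmp2, and 4 pairs for Cnp within its tissues.

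The level in purified cells was compared with that in whole nerve at each time in the fit of all 16 libraries. Before injury, 6 of the 8 genes were lower in Schwann cells and 2, Mag and Cnp, were higher, against 35.3% and 29.1% of the 16829 genes tested. Pmp2 differed most, by −3.82 (SE 0.15), a level 14.1-fold lower in Schwann cells. It was followed by Mbp with −2.07 (SE 0.12), Drp2 with −1.96 (SE 0.20), Pmp22 with −1.45 (SE 0.14), Prx with −1.26 (SE 0.19) and Mal with −1.01 (SE 0.15) on the log2 scale. Mag was higher by 0.52 (SE 0.16, adjusted p = 0.00993 by edgeR), a call lost without replicate 2 of the Schwann cells (0.36, adjusted p = 0.106) or replicate 1 of whole nerve (0.42, adjusted p = 0.0907), and Cnp was higher by 0.82 (SE 0.11, adjusted p = 2.33e-05). The macrophage, fibroblast and endothelial marker sums differed between the tissues in the direction given above, and their part in these differences was not tested. Of the 9 genes of immature and repair Schwann cells that could be tested, 8 were higher in the purified cells before injury and 1, Gap43, was lower, against 29.1% and 35.3% of all genes. Among the higher ones were Jun by 5.02 (SE 0.13), Gfap by 4.08 (SE 0.16) and Ngfr by 1.52 (SE 0.23) on the log2 scale, which were picked after their values had been seen. The value of Shh in this count rests on 3 and 1 counts against 0 and 0. The part of these genes in the differences of the 8, and in the tests of the fold changes between tissues that use the same uncrushed libraries, was not tested.

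After injury Mag and Cnp were again higher in purified cells at each day, while Mbp, Mal and Pmp22, which had been lower before injury, were called higher at days 3 and 5 and were not called at day 7. At day 3, 5 of the 8 genes were higher in purified cells and none was lower, against 24.5% of all genes called higher: Mag by 1.46 (SE 0.32), Cnp by 1.29 (SE 0.12), Mbp by 0.64 (SE 0.12), Mal by 0.53 (SE 0.15) and Pmp22 by 0.43 (SE 0.14) on the log2 scale. Mal and Pmp22 were no longer called without replicate 1 of the Schwann cells (0.44 and 0.40) or replicate 2 of whole nerve (0.38 and 0.29), and Prx, at 0.28 and not called, was called without replicate 1 of whole nerve (0.69) and lay at −0.06 without its replicate 2. At day 5, 6 were higher, against 23.2%, from 0.53 (SE 0.12) for Mbp to 1.304 (SE 0.19) for Mag, and Pmp2 (0.34, adjusted p = 0.0539 by edgeR and 0.0330 by DESeq2) and Drp2 (0.35, adjusted p = 0.254) were not called. Pmp2 was called under all 6 other settings of this fit. By edgeR its adjusted p there ran from 0.00884 (upper quartile normalization) to 0.0432 (at least 10 counts in every library). At day 7, 2 were higher, against 22.4%: Cnp by 0.83 (SE 0.11) and Mag by 0.69 (SE 0.16). The call of Mag at day 7 was lost without replicate 1 of the Schwann cells (0.46, adjusted p = 0.0581 by edgeR), and Drp2 was then called lower (−0.78), while without replicate 2 Pmp22 was called higher (0.44). With upper quartile normalization the median over all genes shifted by 0.137 (day 5) and 0.103 (day 7) on the log2 scale, so differences of that size cannot be separated from 0 here. Pmp22 at day 7 was called higher with that normalization (0.40, adjusted p = 0.0249 by edgeR). The same held with no filter on low counts (0.28, adjusted p = 0.0346) and with library totals (0.35, adjusted p = 0.0482). Library totals in place of TMM factors shifted the median by 0.31 before injury and raised the share of higher genes among those called from 45.2% to 58.9%.

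**Figure D4:**
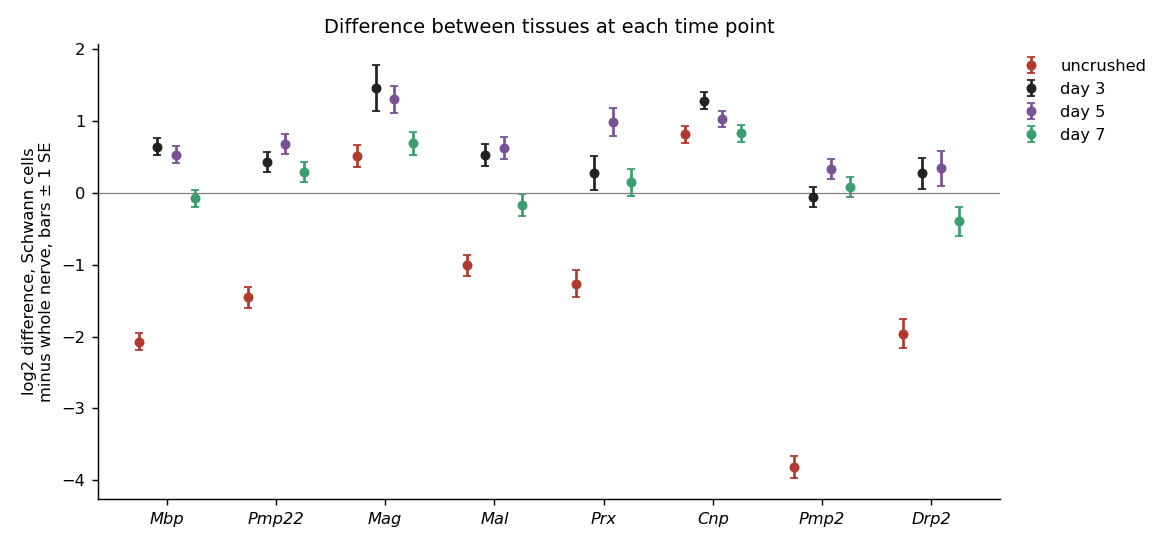
Log2 difference between Schwann cells and whole nerve for each gene (edgeR, bars 1 SE) before injury and at days 3, 5 and 7; values above 0 are higher in Schwann cells. Before injury 6 genes lay below 0, with Pmp2 at −3.82, and after injury the values lay between −0.40 and 1.46.

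The difference between the fold changes of the tissues was tested as an interaction, Schwann cells minus whole nerve, so that a positive value stands for a smaller fall or a larger rise in Schwann cells. It was called positive for 7 of the 8 genes at day 3 and at day 5 and for 6 at day 7, against 12.3%, 12.6% and 11.6% of all genes, and it was called negative for none. Pmp2 had the highest values, 3.77 (SE 0.20), 4.16 (SE 0.20) and 3.90 (SE 0.20) at the 3 days, and Mbp the next, 2.71 (SE 0.17), 2.60 (SE 0.17) and 2.00 (SE 0.17). Mag was not called at day 3 (0.95, adjusted p = 0.0712 by edgeR), though it was without replicate 2 of uncrushed Schwann cells (1.10) or replicate 1 of day 3 whole nerve (1.42), with DESeq2 (0.98, adjusted p = 0.0485) and with no filter on low counts (0.97, adjusted p = 0.0165), or day 7 (0.17, adjusted p = 0.632), and Cnp not at day 5 (0.22, adjusted p = 0.359) or day 7 (0.01, adjusted p = 0.990). The call of Cnp at day 3 (0.47, adjusted p = 0.0442 by edgeR) was lost without replicate 1 (0.54) or 2 (0.40) of day 3 Schwann cells, replicate 1 of uncrushed Schwann cells (0.43), replicate 2 of day 3 whole nerve (0.36) or replicate 2 of uncrushed whole nerve (0.39). The call of Mag at day 5 (0.79, adjusted p = 0.0264) was lost without replicate 1 of day 5 (0.68) or uncrushed (0.65) Schwann cells, replicate 1 (0.74) or 2 (0.84) of day 5 whole nerve or replicate 2 of uncrushed whole nerve (0.70), and that of Mal at day 7 (0.84, adjusted p = 0.0087) without replicate 1 of day 7 Schwann cells (0.61). All 3 were lost with library totals in place of TMM factors, which shifted the median interaction of all genes by −0.36, −0.26 and −0.26 at the 3 days and lowered the share of positive values among those called from 47.4% to 19.5%, from 45.8% to 24.9% and from 44.6% to 23.2%. These tests use the same uncrushed libraries at all days. The 9 other peripheral sheath genes followed as a list were called positive in 8, 8 and 7 cases at the 3 days and negative in none, with medians of 1.52, 1.52 and 0.99, so a positive value was not particular to the 8 genes. Of the 4 Schwann cell markers S100b was called positive at each day, at 2.704 (SE 0.17), 2.697 (SE 0.17) and 2.59 (SE 0.17), and Erbb3 was called negative at days 5 and 7 (−0.80 and −0.81, SE 0.18 for both).

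Other genes of the myelin sheath were followed as lists, and their counts stand beside those of all genes. In Schwann cells 25.7%, 25.6% and 21.9% of all genes tested were called lower at days 3, 5 and 7, and 26.9%, 29% and 25% were called higher. In whole nerve 22.5%, 19.5% and 15.9% were lower, and 23.1%, 18.9% and 15.4% higher. Of 9 other peripheral sheath genes, 6 (66.7%) were lower in Schwann cells at day 3, none was higher and 3 were not called, with a median log2 fold change of −1.13. Cldn19, a tight junction protein of the sheath, had the lowest value, −5.45 (SE 0.19), and Gjb1, the gap junction protein connexin 32, the highest, −0.27 (SE 0.24, adjusted p = 0.373 by edgeR). Cldn19 went from 226 and 243 FPKM to 6.13 and 6.51 at day 3 and stood at 208 and 149 at day 7, a log2 fold change of −0.50 (SE 0.15), where Mag and Prx stood at −1.52 and −1.48. The counts were 5 lower and 1 higher at day 5 and 5 lower at day 7, and in whole nerve 8, 7 and 7 of the 9 were lower at the 3 days.

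Of 10 members of the dystroglycan complex, to which the Prx and Drp2 complex binds, 8 were lower and 2 higher in Schwann cells at day 3, against 25.7% and 26.9% of all genes, with a median of −1.15. Lama2, the laminin chain that dystroglycan binds, was lowest at −2.36 (SE 0.10), and Dag1, which encodes dystroglycan itself, was highest at 0.96 (SE 0.09). Dag1 was at 328 and 325 FPKM before injury and at 592 and 637 at day 3, when Drp2 was at 2.58 and 2.62. In whole nerve Dag1 was called lower, at −0.35 (SE 0.13, adjusted p = 0.0444 by edgeR). At day 5 the count in Schwann cells was again 8 lower and 2 higher, and at day 7 it was 7 lower and 2 higher. In whole nerve 10, 7 and 9 were lower at the 3 days, against 22.5%, 19.5% and 15.9% of all genes, and none was higher.

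Of 12 regulators that act before or during myelination, 6 were lower and 1 higher in Schwann cells at day 3, against 25.7% and 26.9% of all genes, with a median of −0.43. Egr2, a transcription factor that activates myelin genes, was lowest at −3.12 (SE 0.14), from 270.0 and 286 FPKM to 32.2 and 30.7, and Erbb3, a receptor for neuregulin, was highest at 0.52 (SE 0.09). Egr2 stood at −1.89 (SE 0.13) at day 5 and −1.60 (SE 0.13) at day 7. The counts were 4 lower and 2 higher at day 5 (33.3% and 16.7%, against 25.6% and 29% of all genes) and 2 lower and 4 higher at day 7 (16.7% and 33.3%, against 21.9% and 25%), so at these days the list lay near the background. In whole nerve they were 6 and 1, 3 and 3, and 2 and 3, which at days 5 and 7 was also near it.

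Of 10 genes of immature and repair Schwann cells 9 could be tested, and at day 3 in Schwann cells 4 were lower and 5 higher, against 25.7% and 26.9% of all genes, with a median of 1.16. Ncam1, an adhesion molecule, was lowest at −3.58 (SE 0.14). Shh, a secreted signal, was highest: it had 3 and 1 counts in the 2 uncrushed libraries and 93 and 179 at day 3, a ratio per library total of 41.8 with an exact 95% interval of 16.1 to 154 that covers counting error only. The counts were 4 lower and 5 higher at day 5 and 4 lower and 4 higher at day 7, and in whole nerve 2 and 5, 2 and 5, and 1 and 5. Of 5 genes of central nervous system myelin 2 could be tested in Schwann cells, and neither was called at day 3: Cldn11 had −0.18 (SE 0.35, adjusted p = 0.683 by edgeR) and Mog 0.15 (SE 0.38, adjusted p = 0.755). Cldn11 was called higher at day 5 and at day 7, when it reached 2.12 (SE 0.33) at 20.2 and 14.5 FPKM. Of 3 tested in whole nerve, 2 were lower at day 3, 1 was lower at day 5, and 1 was lower and 1 higher at day 7.

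**Figure D5:**
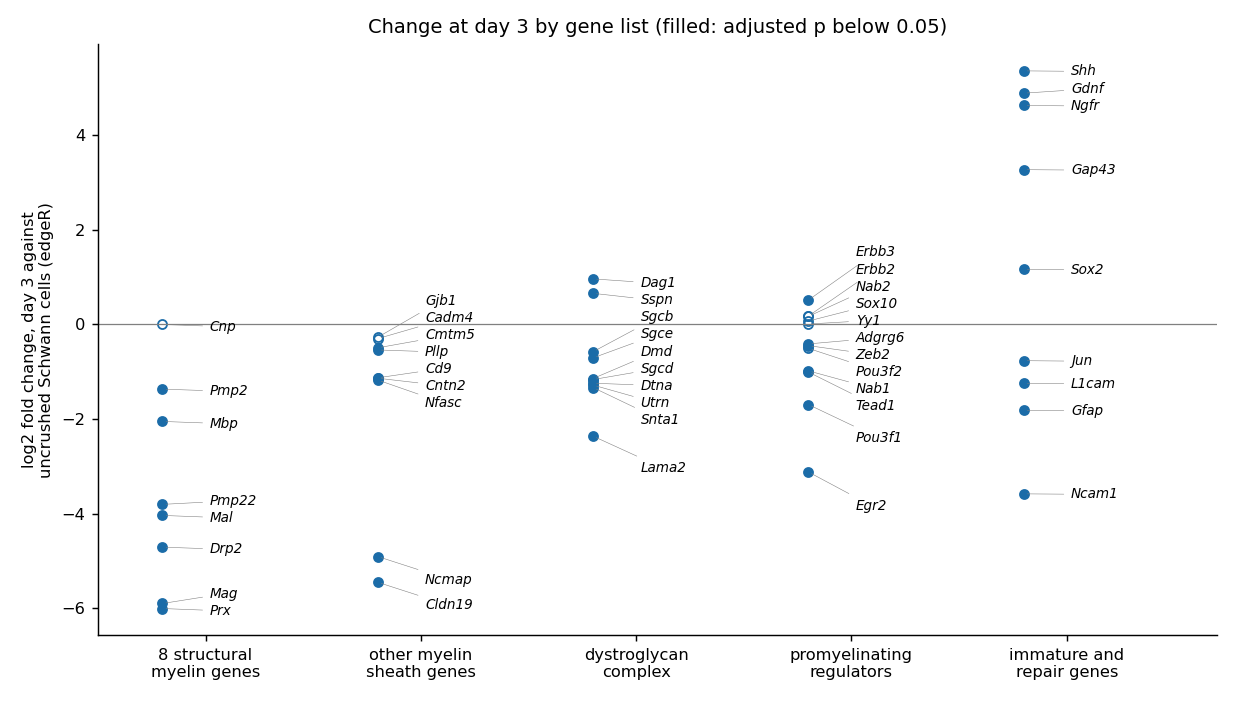
Log2 fold change at day 3 against uncrushed Schwann cells (edgeR) for the 8 structural myelin genes and 4 other lists; each point is a gene, filled where it was called. Prx and Mag lay lowest at −6.01 and −5.90, near Cldn19 at −5.45, and Dag1 and Sspn lay above 0 in the dystroglycan list, at 0.96 and 0.66.

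The profile of each gene over the 8 group means of log2(FPKM + 1) was compared with those of 10213 other genes. Pearson's r is a description here: the 8 points are means of 2 libraries each, and all genes compared share those libraries. Most like Pmp22 were Sema4g (r = 0.997), Dusp15 (0.994) and Fa2h (0.994), the enzyme that hydroxylates fatty acids of myelin lipids. Most like Mal were Sema4g (0.9905), Pmp22 itself (0.990) and Caskin2 (0.989). Fa2h went from 37.3 to 3.51 FPKM in the mean of Schwann cells at day 3 and stood at 16.8 at day 7.

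Most like Mbp were Svip (r = 0.989), Dcdc2 (0.989) and Mfap3l (0.987), which like Mbp had a higher mean in whole nerve before injury, Svip at 199 against 57.7 FPKM. Most like Prx were Emid1 (0.994), Fam212b (0.990) and Bcas1 (0.989), which marks early myelinating oligodendrocytes, and most like Mag were Slc6a8 (0.988), the creatine transporter, Emid1 (0.983) and Sfi1 (0.981). Bcas1 went from 143 to 5.57 FPKM in Schwann cells at day 3. Most like Drp2 were Lect1 (0.992), Elovl7 (0.990), which elongates fatty acids, and Fdps (0.990), an enzyme of cholesterol synthesis. Lect1 and Elovl7 shared the low point of Drp2 at day 5 in Schwann cells, at 0.29 and 1.695 FPKM against 0.925 and 2.045 at day 3.

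The profiles of Cnp and Pmp2 had other neighbours. Most like Cnp were Erbb2 (r = 0.9945), a receptor subunit for neuregulin, Prdm16 (0.991) and Plekhm3 (0.987), all with a higher mean in purified cells at each time, Erbb2 at 7.57 to 9.94 against 2.33 to 3.89 FPKM. Most like Pmp2 were Cplx2 (0.979), Hdac11 (0.974) and Sh3glb2 (0.973). Among the 8 genes themselves r lay between 0.71 (Mag and Pmp2) and 0.99 (Pmp22 and Mal) for pairs without Cnp, and between −0.21 and 0.30 for pairs with Cnp.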

How the data were processed

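RNA-seq libraries of Schwann cells and whole sciatic nerve (2 per group, 8 groups) were compared. The authors aligned reads with STAR to Rnor_6.0 and used RSEM to make the deposited expected counts, which are not normalized and were not filtered. The deposited FPKM and the deposited TPM were computed by the authors with RSEM from the same alignments, scaled to transcript length and library total. No molecular identifiers were used when the cDNA was amplified, so counting intervals cover counting error only. The sources used here differ on the version of the aligner, which is left out. A deposited table of gene modules held 8 columns of per-sample values that matched no label and were not used. The series count matrix and the files of single samples differed by at most 0.

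Expected counts were rounded and tested with edgeR 4.0.16 in R 4.3.3 (TMM factors, filterByExpr, quasi-likelihood test, two-sided, Benjamini-Hochberg adjustment over all genes tested, threshold 0.05). The 8 libraries of a tissue entered each fit within it (14961 genes for Schwann cells, 15831 for whole nerve), and all 16 libraries entered the fit between tissues (16829 genes). Standard errors were derived from each log2 fold change and its F statistic. Totals of 10555067 to 27562637 counts per library set the precision. The test was checked on counts simulated for day 3 against uncrushed Schwann cells, in which 200 of 14582 genes were changed. Of 143 genes called, 135 were changed ones and 8 were not. In the data 7860 of 14961 genes were called in that comparison, so the check does not cover changes in so many genes. Alternatives were DESeq2 1.42.0, upper quartile normalization, other count filters, a replicate block, other samples in the fit, leaving out each library, TPM in place of FPKM, a pseudocount of 0.1 in place of 1 and, chosen after the data had been seen, library totals without TMM factors.

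The 8 genes and the gene lists were chosen with earlier results of these data known, and 1 gene of the lists is not reported here. All 8 genes are named, with the largest and smallest log2 fold change of each list at day 3 in Schwann cells and the 3 genes most like each of the 8 in log2(FPKM + 1), among genes that passed the filter and reached 5 FPKM in a group mean. The later days of Cldn11, Cldn19, Dag1 and Egr2, and Sspn, were described after their values had been seen. Python 3.11.15, numpy 2.4.6, pandas 2.3.3 and matplotlib 3.10.9 were used for levels and plots. Promoter sequences are from RefSeq (GRCr8), and no coordinates of Rnor_6.0 are given.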

Additional observations from a re-analysis of the deposited data

Results flagged for a closer look

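The change after crush differed between Schwann cells and whole nerve in 20 of the 24 tests of the difference, by edgeR's interaction term with adjusted p below 0.05. All 20 were positive, 7 at day 3, 7 at day 5 and 6 at day 7, where 12.3%, 12.6% and 11.6% of all genes were called positive. Of the 9 other peripheral sheath genes, 8, 8 and 7 were called positive at these days, and so was the Schwann cell marker S100b, at 2.704, 2.697 and 2.59. Values are the log2 fold change in Schwann cells minus that in whole nerve, and each rests on 2 libraries in each of 4 groups. At day 3 the differences were 3.77 for Pmp2, 2.71 for Mbp, 2.23 for Drp2, 1.89 for Pmp22, 1.54 for Mal, 1.54 for Prx and 0.47 for Cnp. At day 5 they were 4.16 for Pmp2, 2.60 for Mbp, 2.31 for Drp2, 2.25 for Prx, 2.13 for Pmp22, 1.64 for Mal and 0.79 for Mag. At day 7 they were 3.90 for Pmp2, 2.00 for Mbp, 1.75 for Pmp22, 1.56 for Drp2, 1.41 for Prx and 0.84 for Mal.

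In every one of these tests but those of Cnp and of Pmp2 at days 5 and 7 the gene was called lower in both tissues, so the difference is one of size. Pmp2 had a log2 fold change of −0.04 at day 5 and 0.74 at day 7 in Schwann cells and of −4.32 and −3.27 in whole nerve. Before injury Pmp2 was at 226 and 179 FPKM in Schwann cells and at 2295 and 2310.2 in whole nerve, and at day 7 at 408 and 288 against 326 and 306. Cnp was at 0.00097 in Schwann cells and −0.57 in whole nerve at day 3. The tissues also differed in the TMM factors of their uncrushed libraries and in handling, since whole nerve was not dissociated. With library totals in place of TMM factors, the calls lost were those of Cnp at day 3 (0.11), Mag at day 5 (0.53) and Mal at day 7 (0.58). The other differences listed above kept their calls. The part of handling in these differences was not tested. Groups of 2 libraries were not tested for a library far from the others.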

How the results depend on the processing

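Of the values of the 8 genes, 1048 of those under the 8 other settings of the fit kept their direction and their side of the threshold, 18 changed direction, 7 lost and 31 gained a call. Of those without 1 library, 638 kept both, 17 changed direction, 43 lost and 6 gained a call. No gene called against uncrushed in Schwann cells lost its call under any of these settings, and in whole nerve the one that did was Cnp at day 3 with library totals (−0.16). The changes of direction were in values that the tests of the report did not call. Cnp at day 3 in Schwann cells was −0.079 with upper quartile normalization, −0.0031 with no filter, −0.049 with at least 10 counts in every library, −0.054 with library totals, −0.036 with DESeq2 and −0.033 with all 16 libraries in the fit, and −0.063 to 0.042 without 1 library. Cnp in whole nerve was 0.23 at day 5 with library totals, and at day 7 it was 0.38 with library totals, 0.021 with upper quartile normalization, 0.065 with all 16 libraries and −0.16 to 0.13 without 1 library. The interaction of Cnp was −0.044 at day 5 with library totals, and at day 7 −0.24 with library totals, −0.023 with DESeq2, −0.00078 with at least 10 counts, −0.0046 with no filter and −0.12 to 0.16 without 1 library. That of Mag at day 7 was −0.082 with library totals and −0.056 to 0.37 without 1 library. Pmp2 at day 5 in Schwann cells was −0.20 to 0.11 without 1 library. Between tissues at day 3, Pmp2 was 0.043 with upper quartile normalization and −0.12 to 0.014 without 1 library, and Prx −0.060 to 0.69 without 1 library. At day 7, Mbp was 0.028 with upper quartile normalization and −0.27 to 0.097 without 1 library, where Mal was −0.40 to 0.031, Pmp2 −0.21 to 0.31 and Prx −0.17 to 0.41.

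The counts of all genes called depended on the setting mainly between days. From day 5 to day 7 in Schwann cells 291 genes were called, 1048 with no filter, 543 with DESeq2, 472 with all 16 libraries, 441 with only the 2 groups compared and 31 to 123 without 1 library. In whole nerve 1172 were called, 2247 with no filter and 323 to 862 without 1 library. Without 1 library the counts were 541 to 737 from day 3 to day 5 in Schwann cells (1863 with all), 1533 to 2182 from day 3 to day 7 (3140), 510 to 652 from day 3 to day 5 in whole nerve (1828) and 1635 to 2516 from day 3 to day 7 (3357). At day 7 against uncrushed whole nerve 4952 were called and 7959 with library totals, which moved the median of all genes by 0.41 on the log2 scale and called 1 of the 8 genes, Cnp, higher. Of the 8 genes, those called from day 3 to day 5 numbered 0 lower in Schwann cells without any 1 library and with library totals, 0 to 1 lower and 3 higher in whole nerve without 1 library. From day 5 to day 7 in Schwann cells 2 to 7 were higher. Between tissues the number higher without 1 library was 1 to 2 before injury, 3 to 6 at day 3 and 1 to 3 at day 7, and the number lower at day 7 was 0 to 1, and 1 (Drp2) with no filter. Where a library was left out, the lone sample is assumed to vary like the other groups, and the cause of the other changes was not tested.

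With the replicate block, 179 genes were called from day 5 to day 7 in Schwann cells, and 0 of the 8 were lower from day 3 to day 5, since Drp2 was at adjusted p = 0.0630, while Mal there (0.0447), Cnp from day 3 to day 5 in whole nerve (0.0481) and Pmp2 between tissues at day 5 (0.0322) were called. The block changed no other call of the 8 genes. Differences between same-numbered replicates correlated at −0.05 to 0.05 over 6 pairs of groups in Schwann cells and −0.06 to 0.08 over 6 in whole nerve, and at −0.020 to 0.0025 between the tissues over 4 time points, so the numbers do not pair the samples. Depth limits Mag most, with 11 to 49 counts at day 3.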
